A study of Mus musculus with 24 samples.

Results

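MicroRNAs of the mouse lens were compared between postnatal day 9 (P9) and embryonic day 15 (E15), using the small-RNA tables alone and every miRNA they list. The members are 1908 mature miRNAs, which is every row of those tables, measured in 4 of the 12 small-RNA libraries (24 libraries with the mRNA libraries included). Both groups are wild-type C57BL/6 animals with no treatment, and each is represented by pools A and B, a pool being whole lenses of 8 to 9 pups. The stages between (E18, P0, P3 and P6, 2 pools each) entered the fit and are used only for courses. Because whole lenses were pooled, epithelial and fibre cells were not separated, and any tissue left on the lens after dissection was sequenced with it. The tests measure the spread between separate pools of animals.

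A miRNA is cut from a hairpin precursor that can release a strand from its left side (5p) and from its right side (3p). The loaded strand recognises messenger RNAs mainly through its seed, bases 2 to 8, so miRNAs with the same seed share many targets. Many miRNAs are made from clusters transcribed together, or from introns of protein-coding host genes. In the eye, miR-184 and miR-204 are known as abundant miRNAs of the lens, and the cluster of miR-182, miR-183 and miR-96 is known from photoreceptors and other sensory cells. During the interval compared, lens fibre cells accumulate and the vessels and mesenchyme around the lens regress.

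The mature sequences of the miRNAs on which the comparison turns are given from RefSeq (mouse build GRCm38.p6), 5′ to 3′, with the seed in capitals. RefSeq entries were matched by name for 1606 of the 1908 miRNAs and for 644 of the 777 that were tested. The first set holds the miR-183 cluster, miR-184-3p and 2 let-7 miRNAs, all of which rose, and let-7e-5p, which shares the let-7 seed but did not pass the test.
miR-182-5p: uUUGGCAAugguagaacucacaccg
miR-96-5p: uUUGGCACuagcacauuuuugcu
miR-183-5p: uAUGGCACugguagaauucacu
miR-184-3p: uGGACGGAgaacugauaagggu
let-7a-5p: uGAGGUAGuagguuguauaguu
let-7b-5p: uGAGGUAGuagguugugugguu
let-7e-5p: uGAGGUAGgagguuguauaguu

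miR-182 (chr6:30165962-30165986), miR-96 (chr6:30169506-30169528) and miR-183 (chr6:30169711-30169732) lie on the minus strand within introns of the long non-coding RNA gene Mirc35hg. miR-184 (chr9:89802263-89802284, minus strand) lies outside other annotated genes. let-7b (chr15:85707325-85707346, plus strand) lies in an exon of the non-coding gene Lncppara.

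The second set holds miRNAs that share the seed AUUGCAC and moved in different directions. miR-92a-3p, miR-25-3p and miR-363-3p fell, whereas miR-32-5p rose.
miR-92a-3p: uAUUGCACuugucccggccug
miR-25-3p: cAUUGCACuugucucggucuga
miR-363-3p: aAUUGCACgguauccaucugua
miR-32-5p: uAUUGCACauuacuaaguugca

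miR-92a is encoded at chr14:115044476-115044496 (plus strand), in an exon of the host transcript Mir17hg, and again at chrX:52741854-52741874 (minus strand). miR-25 (chr5:138165332-138165353, minus strand) lies in an intron of the replication gene Mcm7, and miR-32 (chr4:56895272-56895293, minus strand) in an intron of Tmem245. miR-363 lies at chrX:52741697-52741718 on the minus strand, outside other annotated genes.

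The third set holds examples from the 12 largest falls, chosen to show epithelial, mesenchymal and pancreas-associated families.
miR-205-5p: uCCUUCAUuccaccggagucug
miR-200b-3p: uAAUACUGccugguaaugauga
miR-429-3p: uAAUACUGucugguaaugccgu
miR-216b-5p: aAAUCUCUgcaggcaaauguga
miR-199a-3p: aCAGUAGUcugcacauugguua
miR-214-3p: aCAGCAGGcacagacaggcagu

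miR-205 (chr1:193507503-193507524, minus strand) lies in an intron of Mir205hg, and miR-200b (chr4:156055685-156055706, minus strand) in an intron of the non-coding gene Gm13648, which also holds miR-429 (chr4:156053916-156053937) in an exon. miR-214 (chr1:162223438-162223459, plus strand) lies in an exon of the non-coding gene Dnm3os, opposite an intron of Dnm3. One of the loci of miR-199a (chr1:162217883-162217904) is in the same transcript. miR-216b (chr11:28746204-28746225, plus strand) lies in an intron of Mir217hg.

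The deposited small-RNA values are a scaled signal of unnamed unit whose sum per library is 0.764 to 0.817 (in units of 1e6), so each value is relative to its library. Sequencing depth is unknown, since no common step of single reads was found among low values. In the 4 libraries 612 to 730 miRNAs reached a signal of 1, and the 5 most abundant took 36.5% and 35.5% of the signal in E15 A and E15 B and 47.3% and 52.7% in P9 A and P9 B. Pools A and B differed by a median of 0.32 at E15 and 0.28 at P9 on the log2 scale, in either direction, and by 0.51 at P3, the widest of the 6 stages. In the mRNA libraries that carry the same letters, the lens markers Cryaa (22747 and 32377 RPKM at E15, 44991 and 44816 at P9) and Mip (1469 and 2823, then 3870 and 3677) were present at both stages, and miR-184-3p and miR-204-5p were among the most abundant miRNAs at both.

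From E15 to P9 a small number of miRNAs rose and took up much of the library, while many others fell. Of 777 miRNAs tested (signal of at least 1 in at least 2 of the 12 libraries), 93 rose (12%), 383 fell (49.3%) and 476 were called in all (61.3%), using limma on log2(signal + 1) with Benjamini-Hochberg adjusted p below 0.05. The median log2 fold change of the tested miRNAs was -0.80. The signal on the miRNAs that rose went from 12.9% and 14.2% of the library (E15 A and E15 B) to 41.2% and 44.0% (P9 A and P9 B). Together miR-184-3p and miR-182-5p held 8.00% and 8.64% at E15 and 27.6% and 32.7% at P9.

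Since the values are relative, the split between rises and falls depends on the scale. Median-ratio rescaling divides a library by a factor, the median over miRNAs of its value relative to the geometric mean of all libraries. It gave 193 rises (24.8%) and 207 falls (26.6%), 51.5% called in all, with a median of -0.10. Quantile normalization, which gives the libraries 1 common distribution, led to 196 rises (25.2%) and 190 falls (24.5%), 49.7% called in all, with a median of -0.04. Rescaling raised log2 fold changes by a median of 0.85. All 93 miRNAs that rose on the deposited scale also rose after rescaling, and 92 rose on the 3 scales. Of the 383 that fell, 207 also fell after rescaling, 173 were no longer called, and 3 (miR-151-5p, miR-181b-5p and miR-30e-5p) were called higher. Fold changes are on the deposited scale unless the rescaled one is named.

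Among called miRNAs, 65 rose and 322 fell by at least 1 on the log2 scale, and 4 rose and 54 fell by at least 3. The balance differed by abundance. Of 91 miRNAs with a mean signal of at least 1000 at the higher of the 2 stages, 16 rose and 45 fell, against 46 and 23 after rescaling. Of 290 with a mean below 10, 8 rose and 101 fell, against 29 and 53. A further 1131 miRNAs were not tested because of low values, 521 of them at 0 in every one of the 12 libraries.

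**Figure D1:**
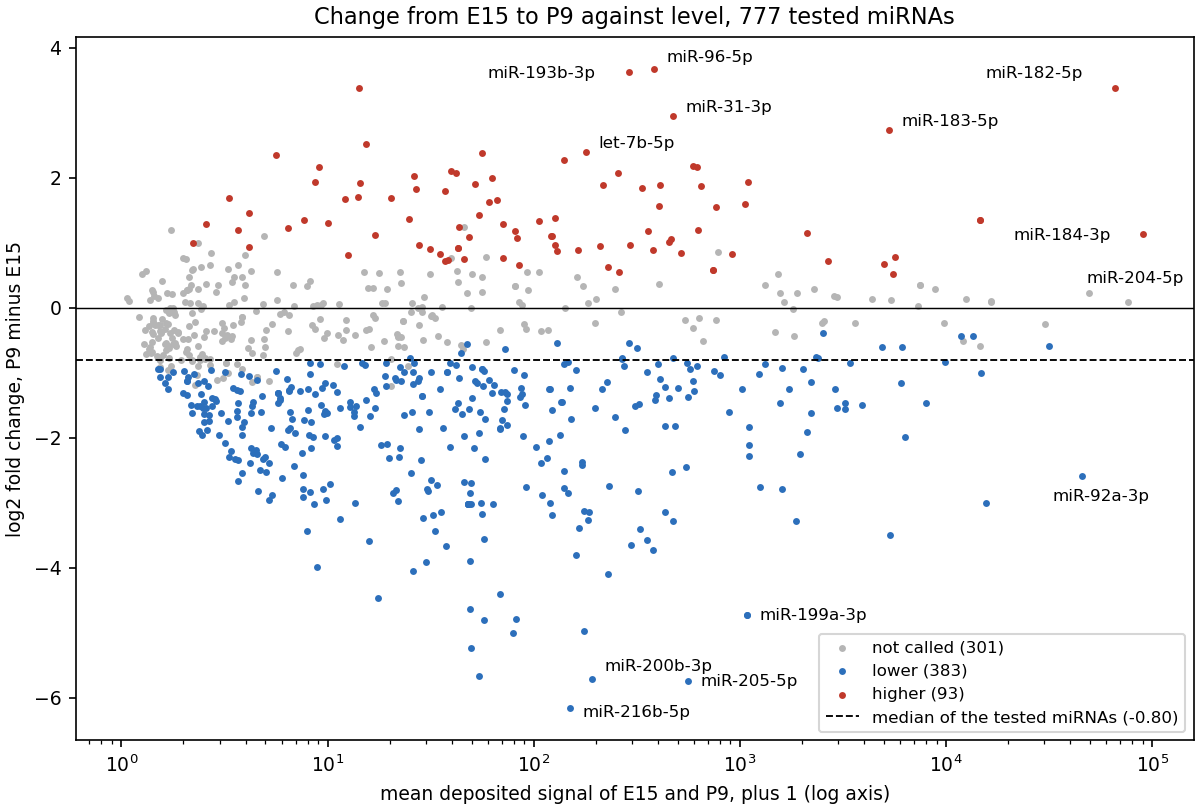
Log2 fold change from E15 to P9 (vertical axis) against the mean deposited signal of the 2 stages plus 1 (horizontal log axis) for 777 tested miRNAs. Red points were called higher (93), blue lower (383) and grey not called; the dashed line is the median, -0.80. The most abundant miRNAs that rose, miR-182-5p and miR-184-3p, lie at the right edge above 0. The 12 largest falls among called miRNAs with a mean of at least 100 at the higher stage lie between -3.81 and -6.16.

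The miR-183 cluster, whose 3 miRNAs have their best known roles in photoreceptors and hair cells of the ear, had the largest rise of any list examined. miR-182-5p measured 13444 and 9131 at E15 and 86379.7 and 154833.5 at P9. The rise was 3.38 ± 0.26 (log2, SE; limma adjusted p = 2.5e-07), and 4.30 after rescaling. Both P9 pools lay above both E15 pools, and pool B was the higher at P9. The share of miR-182-5p in the library went from 1.65% and 1.13% to 10.6% and 19.1%.

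Its cluster partners moved with it, at lower levels. miR-96-5p, whose seed begins with the same letters UUGGCA as that of miR-182-5p, measured 59.5 and 45.9 at E15 and 507 and 917 at P9 (log2 change 3.68 ± 0.33). miR-183-5p measured 1660 and 1104 at E15 and 7106 and 11354 at P9 (2.73 ± 0.27). All 6 tested miRNAs from the 3 hairpins of the cluster, both strands included, rose, with a median log2 fold change of 2.63. Of all tested miRNAs 12% rose.

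Transcripts of retinal photoreceptors rose in the mRNA libraries over the same interval and were also higher in the P9 library of letter B. The assays were matched by letter alone, and whether libraries of a letter share a pool was not tested. Sag, the arrestin of rod photoreceptors, measured 0.201 and 0.434 RPKM at E15 and 41.1 and 100.5 at P9 A and P9 B. Nrl, the transcription factor of rods, stood at 0.218 and 0.134 and then at 18.8 and 42.7. Both were low at E15 and higher in P9 B than in P9 A. The part of retinal RNA in the miRNA result was not tested. Without P9 B the change of miR-182-5p was 2.96 ± 0.25 and without P9 A 3.80 ± 0.25 (adjusted p = 1.8e-06 and 3.3e-07, limma). In bulk tissue fewer cells of a type and less RNA per cell cannot be told apart, here and for every result that follows.

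The lens miRNA miR-184-3p, in which seed mutations cause an inherited human cornea and lens disease, measured 51717 and 60829 at E15 and 137950.5 and 110403 at P9. It rose by 1.14 ± 0.19 (limma adjusted p = 0.00018) and was the most abundant miRNA of P9 A. After quantile normalization its change was 0.51 and was not called (adjusted p = 0.058). miR-204-5p, which is carried in an intron of Trpm3 and is needed for lens and retina formation in fish, did not pass on the deposited scale, with 75271 and 73121 at E15 and 85160.5 and 73401 at P9 (0.09 ± 0.22, adjusted p = 0.74). After rescaling it was called higher (1.01), and after quantile normalization its value was -0.51 without a call, so its direction depends on the scale.

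Its close relative miR-211-5p, which shares the seed UCCCUUU, fell from 2850 and 3871 to 877 and 894 (-1.91 ± 0.18, and -0.99 after rescaling). The P9 pools lay close together and below both E15 pools. The host of miR-211, the cation channel gene Trpm1 of pigment cells and retina, measured 8.41 and 6.41 RPKM at E15 and 5.69 and 6.46 at P9 and was not called (-0.24 ± 0.15). Among the 5 lens and eye miRNAs listed there were 1 rise and 1 fall (median 0.03), next to 12% and 49.3% of all miRNAs. The others, miR-31-5p and miR-26a-5p, had changes of 0.03 and -0.25. Another of the 8 most abundant miRNAs, miR-22-3p, which is expressed in many tissues, measured 14255 and 17844 at E15 and 16191 and 17947 at P9 and did not pass (0.096 ± 0.16). It was called higher after rescaling (1.01), as were miR-26a-5p and miR-31-5p.

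let-7 miRNAs, which time developmental transitions and hold back growth genes, rose in part. Among the 9 tested there were 5 rises, no falls and 4 without a call, and the median change was 0.68 against -0.80 for all miRNAs tested. After rescaling all 9 were called higher, and after quantile normalization 8 were. Of all miRNAs 12% rose on the deposited scale, 24.8% after rescaling and 25.2% after quantile normalization. let-7b-5p changed most, from 43.4 and 71.8 to 278 and 321 (2.40 ± 0.25, limma adjusted p = 3.9e-06). let-7c-5p went from 1000 and 1682 to 2821 and 2934 (1.15 ± 0.26), and miR-98-5p, which carries the same seed, from 186 and 209 to 402 and 368 (0.96 ± 0.17). let-7e-5p, with 2285 and 3157 at E15 and 2324 and 2242 at P9, had a change of -0.23 ± 0.21 and did not pass. Members of the GAGGUAG seed thus took 2.08% of the signal at E15 and 2.91% at P9, a mean of the 2 pools each.

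Genes known as let-7 targets fell in the mRNA libraries over the same interval. Lin28b, which encodes an RNA-binding protein that blocks let-7 maturation, measured 6.22 and 8.20 RPKM at E15 and 0.719 and 0.626 at P9 (-2.29 ± 0.17, limma adjusted p = 5.3e-06). Igf2bp1 changed by -2.02, Igf2bp3 by -1.92 and the chromatin protein gene Hmga2 by -1.13, and all 3 also fell after rescaling. Igf2bp2 fell by 0.99, without a call after rescaling. Of 14405 genes tested 64.1% were called, 55.4% lower and 8.65% higher, so a fall was the most common outcome among mRNAs, whose median log2 fold change was -0.54. After rescaling 41.2% were called, 20.6% higher and 20.6% lower. Lin28a and Trim71 were too low to test, with 0.972 and 0.893 RPKM at E15 and 0.021 and 0.141 at P9 for Lin28a.

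**Figure D2:**
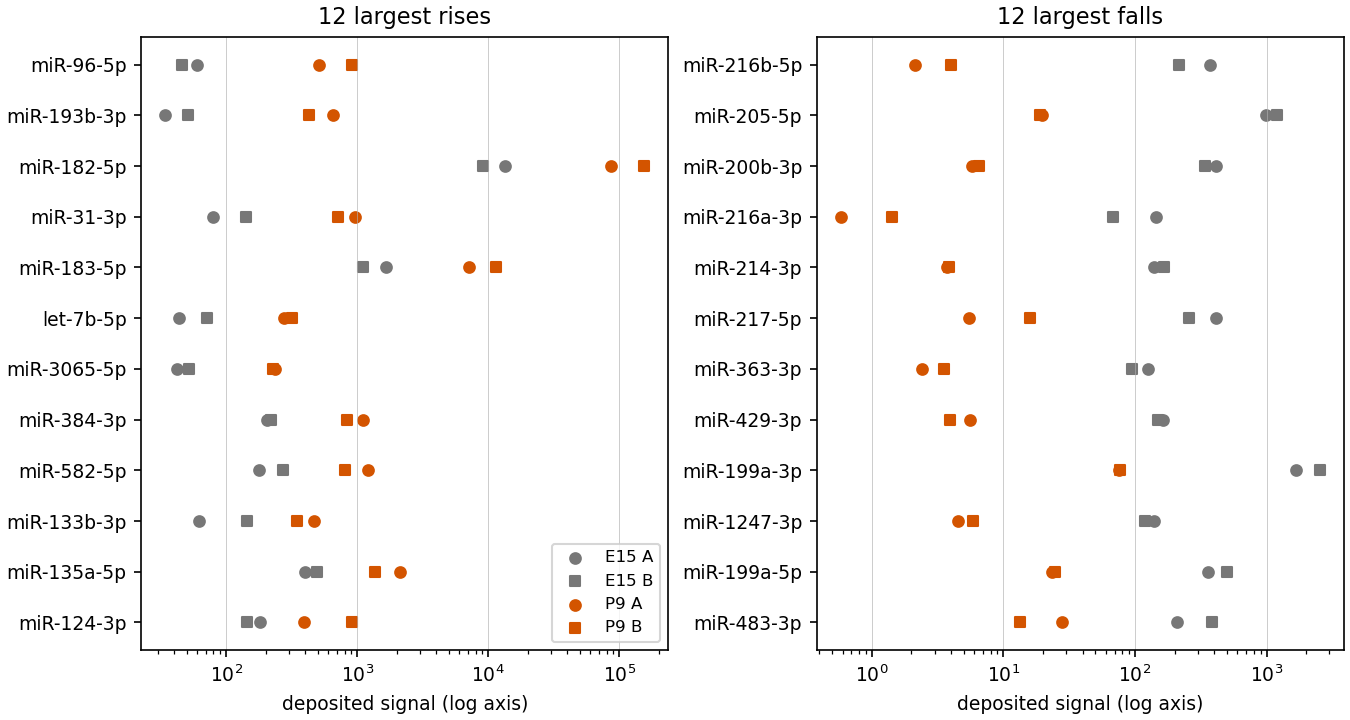
Deposited signal (log axis) in each E15 and P9 library for the 12 largest rises and the 12 largest falls among called miRNAs with a mean of at least 100 at the higher stage. Grey symbols are E15, orange are P9, circles pool A and squares pool B. In all 24 the E15 and P9 pools do not overlap.

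Beyond the miR-183 cluster and let-7b-5p, the 12 largest rises were a mixed group. miR-193b-3p went from 34.3 and 50.7 to 648 and 428 (3.63 ± 0.27, limma adjusted p = 2.0e-07). miR-31-3p, the minor strand of the miR-31 hairpin, went from 79.8 and 141 to 956 and 713 (2.95 ± 0.37). miR-135a-5p went from 396 and 494 to 2133 and 1360 (1.94 ± 0.29). For each of them both P9 pools lay above both E15 pools. miR-3065-5p (2.28), miR-384-3p (2.19), miR-582-5p (2.16), miR-133b-3p (2.08) and miR-124-3p (1.89) completed the group. Pools of the 2 stages do not overlap in 81.5% of the 777 miRNAs, and do not in any of the 24 largest rises and falls. All 24 kept their call after rescaling and after quantile normalization. Of the 12 largest falls, miR-1247-3p is in none of the lists and went from 140.3 and 119 to 4.52 and 5.84 (-4.41 ± 0.30).

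The miR-29 family, known to repress collagen and elastin genes, rose in all 3 tested members, with a median of 1.30. A rise was called in 12% of all miRNAs. miR-29b-3p went from 0.75 and 2.35 to 31.0 and 18.9 (3.38 ± 0.45, limma adjusted p = 3.3e-05), from a level near the detection limit. miR-29c-3p went from 38.1 and 41.7 to 108 and 91.5 (1.29 ± 0.20), and miR-29a-3p from 23.8 and 25.4 to 65.8 and 54.4 (1.25 ± 0.23). The 3 members stayed at low signal at both stages. Among collagen genes known as miR-29 targets, Col1a1 (-2.33), Col1a2 (-1.85) and Col3a1 (-1.67), which encode the fibrillar collagens of connective tissue, fell. Col4a1 and Col4a2, which encode the basement membrane collagen of the lens capsule, rose, Col4a1 from 202 and 290 to 685 and 655 RPKM (1.47 ± 0.15) and Col4a2 by 1.76 ± 0.15. Col4a5, Eln and Fbn1 did not pass. After rescaling Col4a5 was called higher (0.94), Eln and Fbn1 were not called, and the other collagen genes kept their calls.

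Members of the miR-23, miR-27 and miR-24 group, which come from a cluster on chromosome 8 and a related copy, rose in 4 of 5 with a median of 1.18. The share of all miRNAs that rose was 12%. miR-27a-3p went from 314 and 465 to 1321 and 958 (1.55 ± 0.22, limma adjusted p = 4.6e-05). miR-24-3p changed by 1.20 ± 0.23 and miR-23a-3p by 1.18 ± 0.18, with separate pools in each case. miR-27b-3p, at 0.28, did not pass, and was called higher after rescaling (1.20).

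The largest drop in signal came from the seed AUUGCAC. Its 5 tested miRNAs together held 14.3% of the signal at E15 and 2.35% at P9. miR-92a-3p, the most abundant product of the miR-17-92 cluster, which promotes proliferation, measured 86964 and 69886 at E15 and 13370 and 12650 at P9. It fell by 2.58 on the log2 scale (SE 0.19, limma adjusted p = 2.1e-07) and by 1.67 after rescaling. miR-92b-3p, from another locus, went from 32850 and 22682 to 3159 and 3686 (-2.09 after rescaling), and miR-25-3p from 11039 and 9101 to 2623 and 2449 (-1.98 ± 0.15). miR-32-5p ran against the other 4 with a rise of 2.38, from 14.4 and 19.7 to 110 and 77.3. Its pools at P9 lay above both E15 pools.

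Of 13 tested miRNAs of the miR-17-92 cluster and its copies, 11 fell and none rose (median -1.54). The shares lower among all miRNAs were 49.3%, and 26.6% after rescaling. After rescaling 7 fell and 1 was called higher (miR-106b-5p), so part of this result depends on the scale. miR-363-3p fell most, from 124.7 and 94.2 to 2.42 and 3.52 (-4.80 ± 0.31, limma adjusted p = 6.3e-08). miR-20b-5p (-3.24) and miR-18b-5p (-2.79), which lie beside miR-363 on chromosome X, fell to signals of 0.65 to 1.25. The copy on chromosome X (chrX:52741697-52742563) had a median of -2.72 over 7 tested miRNAs, and the miR-17-92 cluster itself on chromosome 14 a median of -1.34 over 11. After rescaling miR-17-5p, miR-18a-5p, miR-19a-3p and miR-20a-5p of the latter were not called.

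Other families known for roles in the cell cycle were mixed, beside 49.3% of all miRNAs lower. The miR-15 and miR-16 group, which restrains cyclins, had 4 of 6 members lower and none higher (median -0.97), with miR-16-5p going from 12584 and 10991 to 4026 and 4481 (-1.47 ± 0.17). After rescaling 3 were lower and 1 higher. miR-15b-5p (-1.48) and miR-322-5p (-1.41) fell on both scales. The miR-130 and miR-301 group had 3 of 4 lower (median -2.11), led by miR-301b-3p, which went from 1047 and 683 to 91.9 and 80.2 (-3.28 ± 0.25). Its fellow miR-130b-3p changed by -2.76 ± 0.17 and miR-301a-3p by -1.46 ± 0.20, and the 3 also fell after rescaling. miR-130a-3p did not pass and was called higher after rescaling. Of the miR-34 and miR-449 group, miR-449c-5p fell by 2.66, miR-34b-5p rose by 1.34 and 3 did not pass (median -0.45). Without E15 A the change of miR-34b-5p was 0.92 and not called (adjusted p = 0.060). Of miR-221 and miR-222, which target the cell cycle inhibitor p27, miR-222-3p fell by 1.80, without a call after rescaling. miR-221-3p did not pass and was called higher after rescaling.

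**Figure D3:**
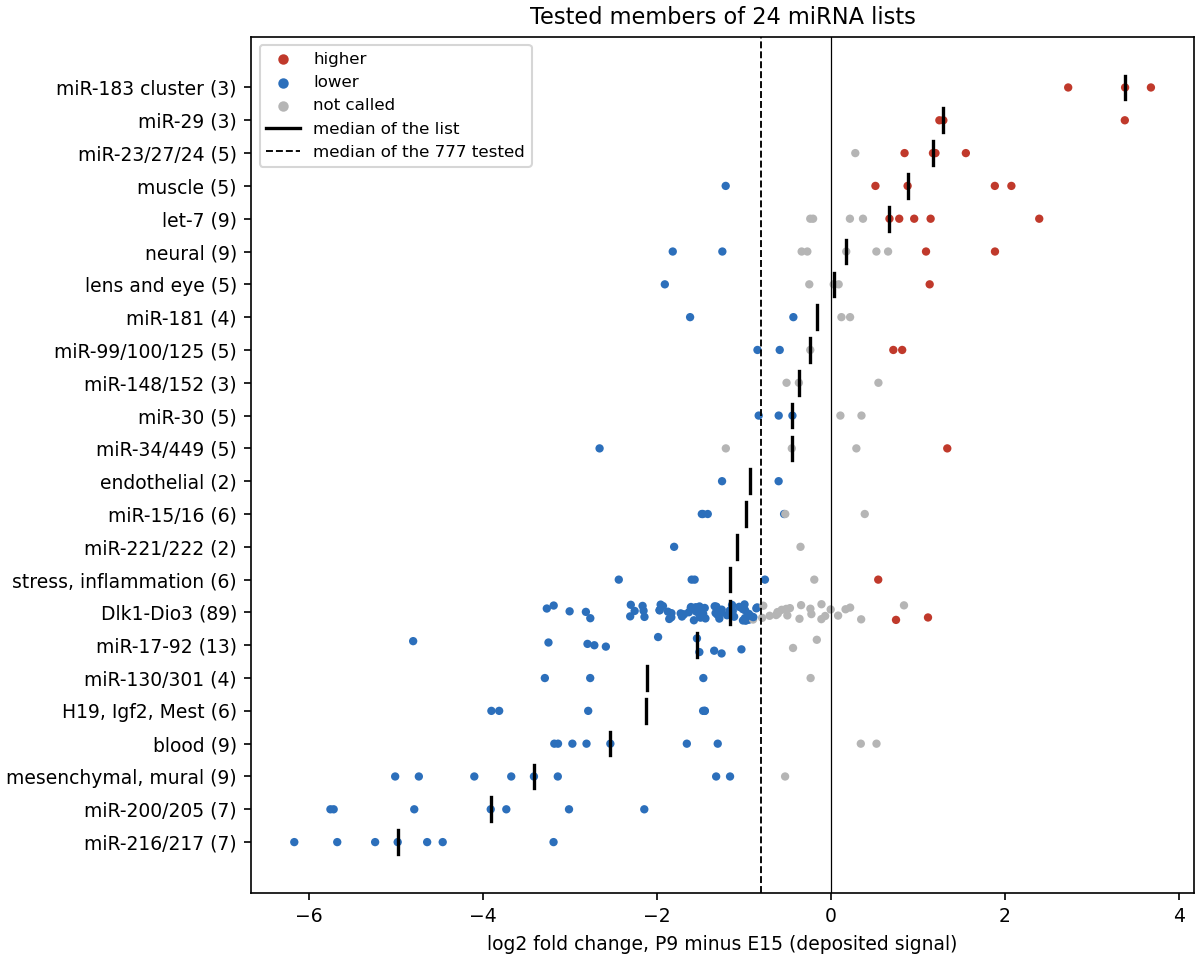
Log2 fold change from E15 to P9 of every tested member of 24 miRNA lists, with the number tested in parentheses. Points are coloured by call, black bars are list medians and the dashed line is the median of the 777 tested miRNAs, -0.80. The miR-183 cluster lies highest, with a median of 3.38, and the miR-216 and miR-217 list lowest, with a median of -4.98.

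The miR-200 family and miR-205, miRNAs of epithelia that repress the mesenchymal factors Zeb1 and Zeb2, fell in all 7 tested members, with a median of -3.91 (-3.12 after rescaling, where all 7 also fell). Falls made up 49.3% of all miRNAs, and 26.6% after rescaling. miR-205-5p went from 991 and 1197 to 19.7 and 18.9 (-5.75 ± 0.23, limma adjusted p = 2.1e-09). miR-200b-3p went from 409 and 341 to 5.75 and 6.56 (-5.71 ± 0.34), and miR-429-3p from 164 and 149 to 5.62 and 3.92 (-4.79 ± 0.28). In each case the stages were far apart and the pools of a stage close together. miR-203-3p, a miRNA of stratified epithelium, measured 977 and 435 at E15 and 48.0 and 48.7 at P9.

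Keratin genes of surface epithelium fell with them. Krt5 stood at 7.65 and 6.98 RPKM at E15 and 0.033 and 0 at P9, and Krt15 at 8.71 and 8.00 and then 0.127 and 0.399. Their part in the fall of the miR-200 family was not tested. The targets Zeb1 and Zeb2 were lower at P9 (-0.75 and -0.80), without a call after rescaling.

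The miR-216 and miR-217 group, best known from the pancreas, fell in all 7 tested members (median -4.98, and -4.10 after rescaling). A fall was called in 49.3% of all miRNAs. miR-216b-5p had the largest fall of the miRNAs with a mean of at least 100, from 374 and 214 to 2.12 and 4.03 (-6.16 ± 0.32, limma adjusted p = 1.2e-08). miR-217-5p went from 415 and 259 to 5.47 and 15.9 (-4.98 ± 0.39) and miR-216a-3p from 144 and 67.5 to 0.58 and 1.42 (-5.67 ± 0.67). miR-216c-5p went from 119 and 70.6 to 0.43 and 3.25 (-5.24 ± 0.60). The summed signal of the list was 1271 and 758 at E15 and 13.8 and 38.2 at P9.

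miRNAs of mesenchyme and vessel walls fell in 8 of 9, with none higher and a median of -3.41, and 6 also fell after rescaling. The shares over all miRNAs were 49.3% lower, and 26.6% after rescaling. miR-199a-3p, which had the same value as miR-199b-3p in every library and was counted once, went from 1659 and 2535 to 75.1 and 77.2 (-4.73 ± 0.22, limma adjusted p = 4.6e-09). miR-214-3p went from 140 and 166 to 3.74 and 3.83 (-4.18 after rescaling) and miR-199a-5p from 361 and 502 to 23.5 and 24.4 (-4.10 ± 0.27). miR-143-3p, the most abundant of the list, went from 7089 and 9739 to 4110 and 3380 (-1.16 ± 0.18) and was not called after rescaling. miR-10a-5p (1136 and 113) and miR-10b-5p (1249 and 332) differed between the E15 pools far more than between the P9 pools (33.9 and 31.9, then 88.1 and 59.5). In the mRNA libraries Rax, a factor of retinal progenitors, also differed at E15, with 75.6 RPKM in pool A against 20.2 in pool B. Whether the 2 differences have a source in common was not tested.

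Blood miRNAs fell in 7 of 9 tested, with none higher and a median of -2.53, and 5 fell and 2 rose after rescaling. Of all miRNAs 49.3% fell, and 26.6% after rescaling. miR-451a, which is made in red cell precursors, went from 549 and 1053 to 133 and 129 (-2.53 ± 0.44, limma adjusted p = 0.00026), and miR-144-5p from the same hairpin cluster changed by -3.18 ± 0.32. miR-142-5p of all blood lineages went from 273 and 352 to 27.6 and 42.8 (-3.13 ± 0.32), and miR-223-3p of myeloid cells from 41.5 and 34.5 to 4.30 and 3.64 (-2.97 ± 0.38). miR-486-5p, equal in every library to miR-3107-5p, was the most abundant of the list and did not pass, with 6354 and 6657 at E15 and 10205 and 6699 at P9 (0.35 ± 0.21). Of blood cell mRNAs, the adult alpha globin gene Hba-a2 went from 3079 and 2540 to 53.7 and 90.2 RPKM, the embryonic globin gene Hbb-y from 294 and 285 to 0 and 0.079, and the myeloid gene Lyz2 from 16.9 and 19.5 to 0.927 and 1.53. The part of blood cells in the miRNA result was not tested.

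Of the endothelial pair, miR-126a-3p went from 1195 and 1689 to 555 and 643 (-1.25 ± 0.20) and miR-126a-5p changed by -0.60 ± 0.24. The course was not a steady fall: the pair summed to 6532 and 8152 at E15, 15338 and 13597 at E18, and 4562 and 4399 at P9. After rescaling neither was called, and the sign of miR-126a-5p turned. Their host Egfl7, an endothelial gene, stood at 36.0 and 29.8 RPKM at E15 and 15.3 and 16.3 at P9.

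Muscle miRNAs rose in 4 of 5, with a median of 0.88, next to 12% higher among all miRNAs. miR-133b-3p went from 62.3 and 143 to 465 and 348 (2.08 ± 0.33, limma adjusted p = 0.00014), miR-1a-3p from 86.1 and 96.5 to 367 and 315 (1.89 ± 0.27), and miR-133a-3p from 3783 and 5350 to 6899 and 5987 (0.51 ± 0.21). miR-206-3p of skeletal muscle went from 19.7 and 32.4 to 10.7 and 10.1, a fall that was not called after rescaling or without E15 B (adjusted p = 0.086). Skeletal muscle mRNAs did not rise with the list. Acta1 stood at 2.23 and 4.11 RPKM at E15 and 0.203 and 0.376 at P9, and Mylpf at 8.65 and 9.27 and then 0.865 and 2.21. The creatine kinase gene Ckm was too low to test, with 0.136 and 0.263 at E15 and 0.462 and 0.485 at P9.

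Neural miRNAs did not move as a group. There were 2 rises and 2 falls among 9 (median 0.18), against 5 rises and 1 fall after rescaling. The shares over all miRNAs were 12% higher and 49.3% lower, and 24.8% and 26.6% after rescaling. miR-124-3p of neurons went from 182 and 144 to 395 and 917 (1.89 ± 0.32, limma adjusted p = 0.00023), and P9 B was again the higher pool. Without P9 B its change was 1.28 and without P9 A it was 2.50. miR-9-5p, of neural progenitors and retina, was also higher in P9 B (3971) than in P9 A (2209) and did not pass (0.18 ± 0.27). miR-128-3p of neurons went from 684 and 664 to 173 and 210 (-1.81 ± 0.24), and miR-138-5p changed by -1.24 ± 0.22, without a call after rescaling.

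The 6 miRNAs of the imprinted growth loci H19, Igf2 and Mest all fell (median -2.13), and 5 did so after rescaling. miR-483-5p of the Igf2 locus went from 88.1 and 93.8 to 6.79 and 3.87 (-3.90 ± 0.33, limma adjusted p = 4.7e-07), miR-483-3p from 209 and 387 to 27.7 and 13.4 (-3.81 ± 0.55), and miR-335-3p of the Mest locus from 2887 and 2686 to 459.5 and 353 (-2.79 ± 0.23). The E15 pools lay above the P9 pools in each. Of 89 tested miRNAs of the imprinted Dlk1-Dio3 locus on chromosome 12, which are expressed from the maternal chromosome, 63 fell, 2 rose (miR-136-5p and miR-337-3p) and 24 did not pass, next to 49.3% lower among all miRNAs. Their median was -1.16, against -0.80 for all miRNAs tested, and 29 fell and 6 rose after rescaling, where 26.6% of all miRNAs fell. miR-540-3p (-3.26 ± 0.36), miR-758-3p (-3.18 ± 0.22) and miR-433-3p (189 and 238, then 26.2 and 25.1) are the named examples, and all 3 also fell after rescaling. The summed signal of the locus went from 43969 and 53786 to 23476 and 19305.

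In several abundant families the members divided. Of the miR-181 family, miR-181d-5p fell by 1.62 (SE 0.14) and by 0.70 after rescaling, miR-181b-5p fell by 0.43, and miR-181a-5p, with 44664 and 46505 at E15 and 47127 and 60046 at P9, did not pass (0.22 ± 0.17). The median was -0.15. After rescaling miR-181b-5p turned to 0.49, miR-181a-5p stood at 1.14, and both were called higher. Of miR-99, miR-100 and miR-125, which are encoded beside let-7 genes, miR-99a-5p (0.82) and miR-125b-5p (0.72) rose, miR-100-5p (-0.84) and miR-99b-5p (-0.59) fell, and 1 did not pass (median -0.23). The falls of the last pair turned to 0.07 and 0.33, not called, after rescaling. Of the miR-30 family, known in differentiated epithelium, 3 of 5 fell, next to 49.3% of all miRNAs. These were miR-30d-5p (by 0.83), miR-30c-5p (by 0.60) and miR-30e-5p (by 0.44), and the family median was -0.44. All 3 had a sign above 0 after rescaling, and miR-30e-5p was called higher.

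None of the 3 tested members of the miR-148 and miR-152 group passed (median -0.37). After rescaling 2 were called higher and none lower (median 0.55), and after quantile normalization 2 were higher as well. miR-148a-3p, the most abundant, measured 13430.1 and 14494 at E15 and 12497 and 7712 at P9 (-0.51 ± 0.25, and 0.41 without a call after rescaling). Without P9 A its change was -0.86 and called lower (adjusted p = 0.014, limma), and without P3 A or P3 B the value of -0.51 was called as well (0.030 in both cases). Of 6 miRNAs of stress and inflammation, 4 fell and 1 rose (median -1.16), with 2 and 2 after rescaling. Over all miRNAs 49.3% fell, and 26.6% after rescaling. miR-212-3p (-2.44 ± 0.44) and miR-132-3p (-1.60 ± 0.27), which share a hairpin cluster induced by neuronal activity, also fell after rescaling, but after quantile normalization the change of miR-132-3p was -0.62 and not called (adjusted p = 0.086, limma), and miR-146a-5p fell by 1.56, without a call after rescaling.

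Hairpins within 10 kb of each other on a strand formed 13 clusters of at least 3 hairpins with tested miRNAs, and 1 of them, a segment of the Dlk1-Dio3 locus, held members called both ways. After rescaling 6 did. Among all tested miRNAs 12% rose and 49.3% fell on the deposited scale. The median was above 0 in 3 clusters, those of miR-183, of miR-23a and of let-7a (chr13:48536024-48538260). Lowest was the cluster of miR-200b, miR-200a and miR-429, with 5 of 5 tested lower. The cluster of miR-322, miR-503 and miR-351 on chromosome X (chrX:53048008-53054327) had 11 of 12 lower, with a median of -2.36. Of 15 seed families with at least 3 tested members, 1 had every member higher, 2 every member lower, and 5 had members called in both directions.

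miRNAs inside a host gene were set beside the host's mRNA. Of 36 pairs in which both were tested, 19 had both called, with 3 both higher, 15 both lower and 1 opposite. Over all features 49.3% of miRNAs and 55.4% of mRNAs were lower, and the count of pairs was not tested against these shares. After rescaling of both assays 17 had both called, with 6 both higher, 7 both lower and 4 opposite. H19, the long non-coding host of miR-675, went from 847 and 1256 to 5.04 and 7.71 RPKM (-7.15 ± 0.19), while miR-675-3p changed by -1.45. After rescaling H19 was still called lower (-6.55), and miR-675-3p, at low signal, was not called (-0.63). Igf2, the growth factor gene around miR-483, changed by -4.96 ± 0.18, next to -3.81 for miR-483-3p. Mcm7 went from 48.8 and 25.5 to 5.50 and 5.07 RPKM (-2.53 ± 0.24), and of the miRNAs in it miR-25-3p fell by 1.98 and miR-93-5p by 1.54, while miR-106b-5p, with -0.16, did not pass. Smc4, a condensin gene, changed by -2.64 next to -1.48 for miR-15b-5p. The pairs that rose were miR-338-3p with the kinase gene Aatk (2.00 and 1.57) and both strands of miR-455 with the collagen gene Col27a1 (1.05 for the mRNA). miR-139-5p rose by 0.96 while its host Pde2a fell by 1.29, a fall not called after rescaling (-0.70).

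The 2 strands of a hairpin often changed by different amounts. For 136 hairpins with both strands measured (each tested, with a mean signal of at least 5), the log2 ratio of the 5p to the 3p strand was tested in the same model. The ratio changed in 85 (62.5%), toward 5p in 49 (36.0%) and toward 3p in 36 (26.5%). The ratios were computed on the deposited scale and were not refitted under the other scales. A factor per library, as in median-ratio rescaling, cancels in the ratio apart from the pseudocount, whereas quantile normalization can change it. Leaving out E15 A or P9 A reduced the count to 51 in either case. In 14 hairpins the more abundant strand differed between the stages, and 11 of these were called.

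miR-345 changed most toward 5p, from 27.8% and 40.9% of the hairpin's signal on the 5p strand at E15 to 85.4% and 83.0% at P9 (log2 ratio change 3.33 ± 0.28, limma adjusted p = 3.2e-06). The 3p strand of miR-345 went from 287 and 229 to 35.7 and 33.6, whereas the 5p strand went from 110 and 159 to 208 and 164. Its strands are
miR-345-5p: gCUGACCCcuaguccagugcuu
miR-345-3p: cCUGAACUaggggucuggagac
and lie at chr12:108836989-108837010 and chr12:108837027-108837048 on the plus strand, outside other annotated genes, with different seeds. miR-671 went from 16.8% and 24.4% to 68.6% and 62.3% on 5p (2.85 ± 0.39) and miR-216a from 30.0% and 43.8% to 83.6% and 86.7% (2.49 ± 0.41). In these 3 hairpins the more abundant strand was 3p at E15 and 5p at P9. In miR-216a both strands had fallen to low signal by P9, so its share there rests on values near the floor. miR-32 changed by 2.73 ± 0.42 without a change of its more abundant strand.

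Toward 3p the largest change was that of miR-31, from 98.7% and 98.4% to 88.7% and 91.1% on 5p (-2.91 ± 0.39, limma adjusted p = 9.9e-05). The 5p strand did not pass (6084 and 8552 at E15, 7516 and 7265 at P9), whereas miR-31-3p rose. Its strands, at chr4:88910614-88910635 and chr4:88910577-88910599 on the minus strand in an exon of the non-coding gene Gm49890, are
miR-31-5p: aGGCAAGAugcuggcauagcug
miR-31-3p: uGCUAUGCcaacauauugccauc
and have different seeds. miR-337 (-2.61 ± 0.44), miR-664 (-2.52 ± 0.32) and miR-27a (-2.42 ± 0.42) followed. In miR-664 the more abundant strand was 5p at E15 (60.8% and 55.6%) and 3p at P9 (16.1% and 19.7% on 5p), at low signal. Among more abundant hairpins miR-151 went from 37.4% to 57.6% on 5p and miR-335 from 45.3% to 67.2%, as means of 2 pools.

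**Figure D4:**
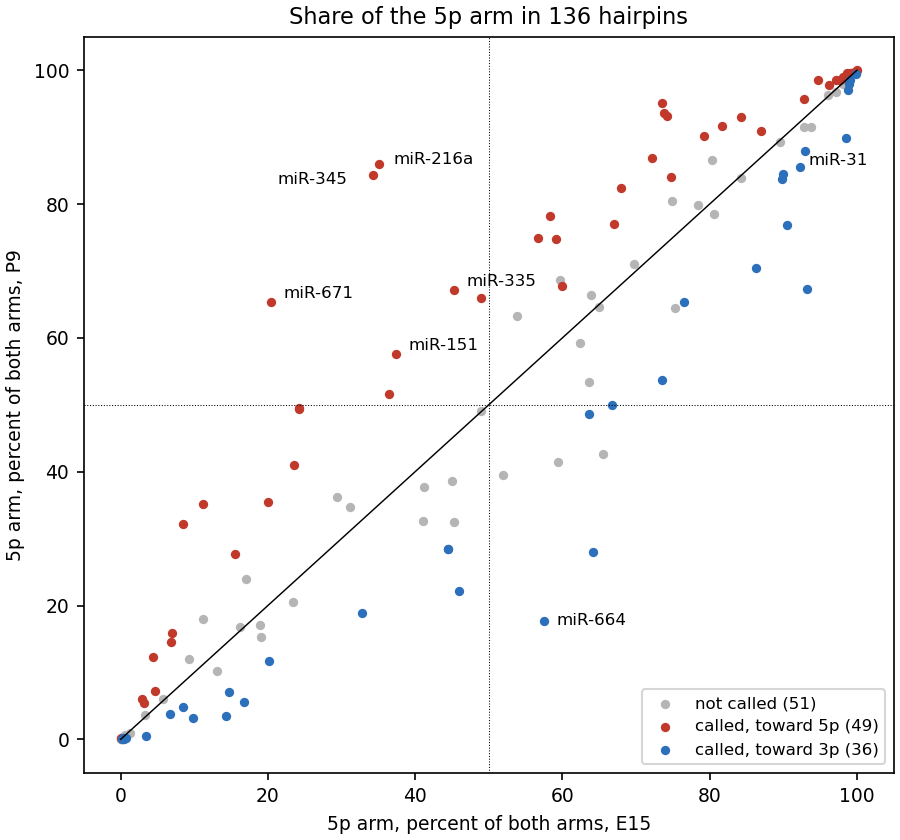
Share of the 5p strand in the summed signal of both strands at E15 (horizontal) and P9 (vertical), in percent, for 136 hairpins, each share being computed from the mean of 2 pools. Red points were called toward 5p (49), blue toward 3p (36) and grey not called (51); dotted lines mark equal strands. miR-345, miR-216a and miR-671 lie in the upper left of the plot, and miR-664 in the lower right.

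On the deposited scale the courses through the stages between differed between rises and falls. Of 142 miRNAs that fell and had a mean of at least 100 at the higher stage, 54 were past the midpoint between the 2 end levels by E18, and of 49 that rose, 6 were. The means fell at every step in 38 of the 142 and rose at every step in 1 of the 49. Leaving P3 out of the sequence, the counts were 78 and 8. These counts are of stage means on the deposited scale, without a test, and were not repeated after rescaling. The median-ratio factors (A and B) were 1.35 and 1.43 at E15, 1.16 and 1.13 at E18 and 0.76 and 0.71 at P9. The counts therefore depend on the scale, and in which direction was not tested.

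miR-205-5p stood at 1094 ± 146 (SD, 2 pools) at E15 and already at 72.5 and 104 at E18, and miR-199a-3p at 295 and 373 at E18. Most of both falls thus lay before E18. miR-92a-3p was lower at each later stage than at E15, with a higher mean at P3 than at P0, going from 37337 and 42868 at E18 to 24689 and 26665 at P0, 35662 and 24425 at P3 and 16979 and 17185 at P6. miR-182-5p was higher at E18 (32045 and 30851) than at P0 (12002 and 9202), reached 58573 and 65664 at P3, and was highest at P9. miR-31-3p was low at P3 (72.8 and 191) between higher values at P0 (632 and 524) and P6 (878 and 941). let-7b-5p ran the other way, with 336 and 228 at P3 against 101 and 114 at P0 and 179 and 159 at P6.

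**Figure D5:**
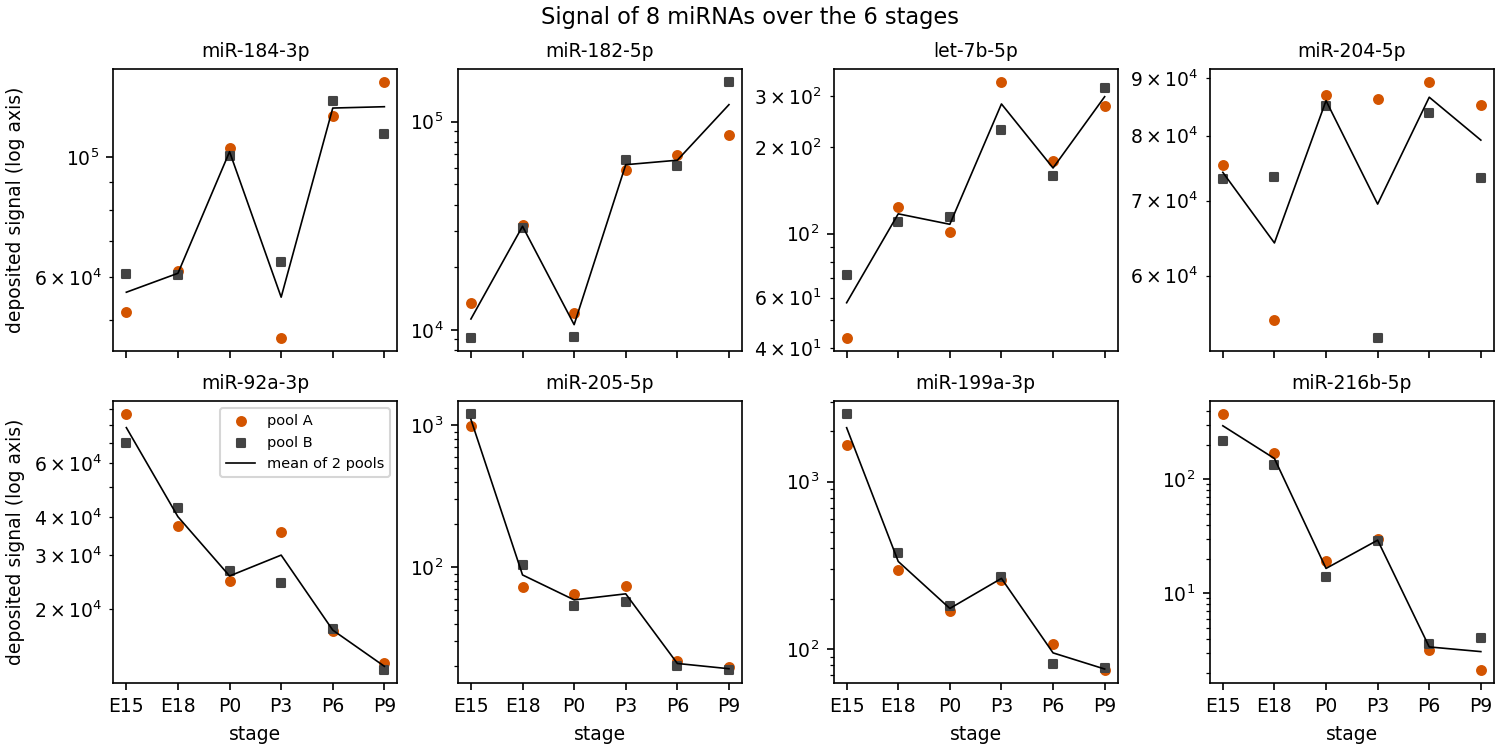
Deposited signal (log axes with a separate range in each panel) over the 6 stages for 8 miRNAs. Orange circles are pool A, dark squares pool B and lines join the means of 2 pools. miR-205-5p and miR-199a-3p drop most between E15 and E18, while miR-184-3p and miR-182-5p reach their highest means at P9 after dips at P3 and P0.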

How the data were processed

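Per the labels, lens RNA was extracted with Trizol, and small-RNA and mRNA libraries were made with TruSeq kits. The submitters' processing notes name SAMtools 0.1.18, Bowtie 0.12.8 and GRCm38/mm10 as mouse build, without saying what each was used for. How reads matching several loci were counted is not stated there. The authors deposited 1 table per library. The deposited miRNA values are a scaled signal of unnamed unit, and the deposited mRNA values were taken as RPKM from their form, since the unit is not stated. Reads of near-identical miRNAs can be placed on the wrong copy; 89 miRNAs shared their values in every library with another miRNA (32 of them tested) and are uncertain singly.

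From there, values were taken as log2(value + 1), which understates changes of low miRNAs. Features with at least 1 in at least 2 of 12 libraries were tested: 777 of 1908 miRNAs and 14405 of 30705 genes. One limma model per assay (limma 3.58.1, R 4.3.3) had stage as a factor of 6 levels over 12 libraries with an intensity trend; P9 minus E15 was its contrast, with Benjamini-Hochberg adjustment over all features tested. The 5p to 3p log2 ratio was fitted the same way, with the mean level of both strands as the trend covariate. The procedure was tested on simulated data. Tables were handled with Python 3.11.15, pandas 2.3.3 and numpy 2.4.6, and plots made with matplotlib 3.10.9. Whole reads could not be recovered, so no count test was run and counting error is unknown.

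Members and lists were chosen with earlier results of these data known. The text names the 12 largest rises and falls among called miRNAs with a mean of at least 100 at the higher stage, the 8 most abundant, up to 3 called members of each list, 4 hairpins in each direction, and up to 4 hosts and targets in each direction; other miRNAs, hosts and the mRNA markers of retina, blood, muscle, surface epithelium and lens were added after values were seen. 1 marker gene is not reported here. Replicate letters did not pair the samples: the correlation of A minus B between stages was -0.23 to 0.08 over 15 pairs of stages. Alternatives tried were other pseudocounts, filters, scalings, sample sets, a replicate block and leaving out each library.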

Additional observations from a re-analysis of the deposited data

How the results depend on the processing

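The depth of the small-RNA libraries is unknown, so counting error cannot be given for low signals, and with 2 pools per stage the spread was pooled over 6 stages that differ in it. The total of 476 calls stayed within 1.5 times under each alternative, but the split moved: median-ratio rescaling gave 193 higher and 207 lower, and quantile normalization 196 and 190, by construction of scales that centre the changes. Leaving out 1 library gave 398 to 516 calls, with 71 to 108 higher and 327 to 408 lower. Called arm ratios numbered 146 with no filter on low values, where more hairpins were tested, and 51 to 100 without 1 library, with 51 both without E15 A and without P9 A; the cause was not tested. Host and target mRNAs called numbered 31 to 40 without 1 library, against 34.

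With the replicate letter as a replicate block, 91 miRNAs were higher and 379 lower and 84 arm ratios were called; with the letters crossed at P9, an alternative chosen after seeing the data, 92 were higher and 383 lower. The letters gave no sign of pairing the samples (E15 to P9 correlation -0.18).

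Among the 78 miRNAs named by the stated rules, the sign turned after median-ratio rescaling for miR-99b-5p (0.33), miR-26a-5p (0.67), miR-126a-5p (0.32), miR-30d-5p (0.087), miR-30c-5p (0.32), miR-30e-5p (0.47), miR-181b-5p (0.49), miR-100-5p (0.072) and miR-148a-3p (0.41). Outside that set it also turned for miR-106b-5p (0.75) and miR-151-5p (0.53), among others. It turned for miR-204-5p after quantile normalization (-0.51) and without P9 A (-0.015, range without 1 library -0.015 to 0.20), and for miR-22-3p without E15 A (-0.066, range -0.066 to 0.26). Of 93 named calls, 6 were lost without 1 library or another: miR-99b-5p, miR-34b-5p, miR-126a-5p, miR-30e-5p, miR-181b-5p and miR-206-3p. The cause of these changes was not tested.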
